A study of Homo sapiens with 27 samples.

Results

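Karpas422 is an established human cell line of diffuse large B-cell lymphoma (DLBCL), which the study used to represent DLBCL with high expression of oxidative phosphorylation genes. The comparison described here set 3 libraries of Karpas422 cells expressing the first short hairpin RNA (shRNA) against SIRT3, shSIRT3-1, against 3 libraries of the same line expressing a scramble control shRNA, shCtr. They are 6 of 27 libraries, which covered 3 DLBCL lines (Karpas422, OCI-LY1 and HBL1) and 2 SIRT3 shRNAs with 3 replicates in each of 9 groups. Both groups carried a pLKO.1 lentivirus with puromycin resistance and YFP, and the RNA came from cells harvested 8 days after infection, so infection and vector were common to the groups and the RNA is that of a late time point. The groups were taken from the sample labels, and the genes followed were the 11106 of 27115 that reached 1 CPM (reads on a gene scaled to the size of the library, not to gene length) in 3 or more of the 6 libraries. The study describes the knockdown as replicated within each line, without saying whether the replicates were separate infections, and p-values measure the spread between these libraries.

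SIRT3 is a NAD+-dependent deacetylase of the mitochondrial matrix that acts on enzymes of central metabolism, among them glutamate dehydrogenase. ATF4 is a basic leucine zipper transcription factor whose translation increases when stress kinases phosphorylate the initiation factor eIF2α, a route known as the integrated stress response. Together with C/EBP partners it turns on genes for amino acid synthesis and uptake, for charging of tRNA with amino acids, and for further stress factors such as DDIT3 (CHOP) and TRIB3. The comparison addresses which transcripts and pathways differ in Karpas422 cells when SIRT3 is depleted.

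SIRT3 itself, on the minus strand of chromosome 11 (hg19, 215030 to 236931), measured 9.99, 9.14 and 10.2 CPM with shCtr and 2.44, 2.79 and 2.57 CPM with shSIRT3-1. The groups were far apart, and every shSIRT3-1 library lay below every control library. Its log2 fold change was −1.87, with a standard error (SE) of 0.12 and an adjusted p of 0.000423, which left 26.6% of the control level. All log2 fold changes here are shSIRT3-1 minus shCtr on the log2(CPM + 0.1) scale, which understates the change of genes with low values, and adjusted p values are those of limma with Benjamini-Hochberg adjustment over all genes tested unless another tool is named. Of the other sirtuins measured, SIRT2, the cytosolic deacetylase, had a log2 fold change of −0.70 (adjusted p = 0.0199), from 11.8, 13.7 and 11.3 CPM to 7.598, 9.5 and 5.86 CPM. The SIRT2 call was lost when shCtr replicate 2, shSIRT3-1 replicate 1 or shSIRT3-1 replicate 3 was left out.

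Genes were called where the fold change exceeded 1.5 with an adjusted p under 0.05. By this rule 1293 genes were lower with shSIRT3-1 (11.6% of the 11106 tested) and 509 were higher (4.58%), together 1802 genes or 16.2%. The 3 values of each group did not overlap in 1796 of them, but the rule itself favours such separation. This count therefore adds no support of its own. The reads on genes numbered between 40722163 and 50203832 per library, and every pair of replicates differed by more than sampling noise. The split between directions moved with normalization, from 71.8% of calls on the lower side as deposited (1293 of 1802) to 52.9% after quantile normalization (891 lower, 793 higher). Replicate 3 of shSIRT3-1 stood apart in size of response. It was the knockdown library farthest from the control mean in 68.4% of the 1293 lower genes and in 66.6% of the 509 higher genes, and without it 1107 genes were called lower and 377 higher. The median log2 fold change over all tested genes was −0.079.

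The list of ATF4 and its stress targets had the largest share of lower genes among the lists with at least 10 tested genes. Of 25 measured genes encoding ATF4, its partners and its stress targets, 22 were lower (median log2 fold change of the list −1.88), against 11.6% of all genes, and 1 was higher. ATF4 mRNA measured 329, 372 and 278 CPM with shCtr and 185, 165 and 134 CPM with shSIRT3-1. Every knockdown library was below every control library, and the log2 fold change was −1.02 (SE 0.15, adjusted p = 0.00263). The list kept 20 to 22 lower genes when each library was left out in turn and 22 without shSIRT3-1 replicate 3.

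Among the transcription factors that pair with or follow ATF4, JDP2, a repressor of the AP-1 family, fell most. It measured 15.2, 10.8 and 16.8 CPM with shCtr and 1.02, 1.07 and 0.212 CPM with shSIRT3-1, a log2 fold change of −4.25 (SE 0.47, adjusted p = 0.000973). ATF5, the close relative of ATF4 linked to mitochondrial stress, measured 576, 935 and 524 CPM with shCtr and 61.6, 59.2 and 21.5 CPM with shSIRT3-1 (log2 fold change −3.93, SE 0.40, adjusted p = 0.000758). CEBPB, a dimer partner of ATF4, measured 23.7, 28.3 and 26.99 CPM with shCtr and 3.23, 3.69 and 1.71 CPM with shSIRT3-1 (log2 fold change −3.22, SE 0.26, adjusted p = 0.000423). In each of these factors shSIRT3-1 replicate 3 was the lowest library and the groups did not overlap. ATF3 (−2.69), CEBPG (−1.62), DDIT3, the death-linked factor CHOP (−1.45), and TRIB3, the pseudokinase that feeds back on ATF4 (−2.12), were also lower. CEBPD was the exception of the family, with 2.86, 3.11 and 3.81 CPM in the controls and 6.09, 7.16 and 6.93 CPM after knockdown (log2 fold change 1.03, adjusted p = 0.00244).

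Effectors of the stress response were among the lower genes too. CHAC1, an enzyme that degrades glutathione, measured 67.4, 59.3 and 85.1 CPM with shCtr and 6.64, 5.58 and 1.71 CPM with shSIRT3-1, a 15.2-fold lower mean (log2 fold change −4.09, SE 0.44, adjusted p = 0.000865). INHBE, which encodes the inhibin beta E subunit of a secreted hormone, measured 58.4, 60.3 and 47.3 CPM with shCtr and 6.505, 6.88 and 2.07 CPM with shSIRT3-1, 10.7-fold lower (log2 fold change −3.57, adjusted p = 0.000981). ADM2, another secreted peptide hormone, was not on the list but stood among the largest falls, from 3.55, 4.75 and 4.21 CPM to 0.204, 0.206 and 0.3501 CPM (log2 fold change −3.61, adjusted p = 0.000423). The enzymes of transsulfuration, CBS (−2.17) and CTH (−2.55), which make cysteine from methionine, both fell. PPP1R15A (GADD34), which recruits the phosphatase that restores eIF2α, and GADD45A were the measured members without a call, with log2 fold changes of −0.45 (adjusted p = 0.204) and −0.54 (adjusted p = 0.274). In every list described here, called members beyond the 3 largest changes in a direction, and members without a call, were chosen after their values were seen.

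**Figure D1:**
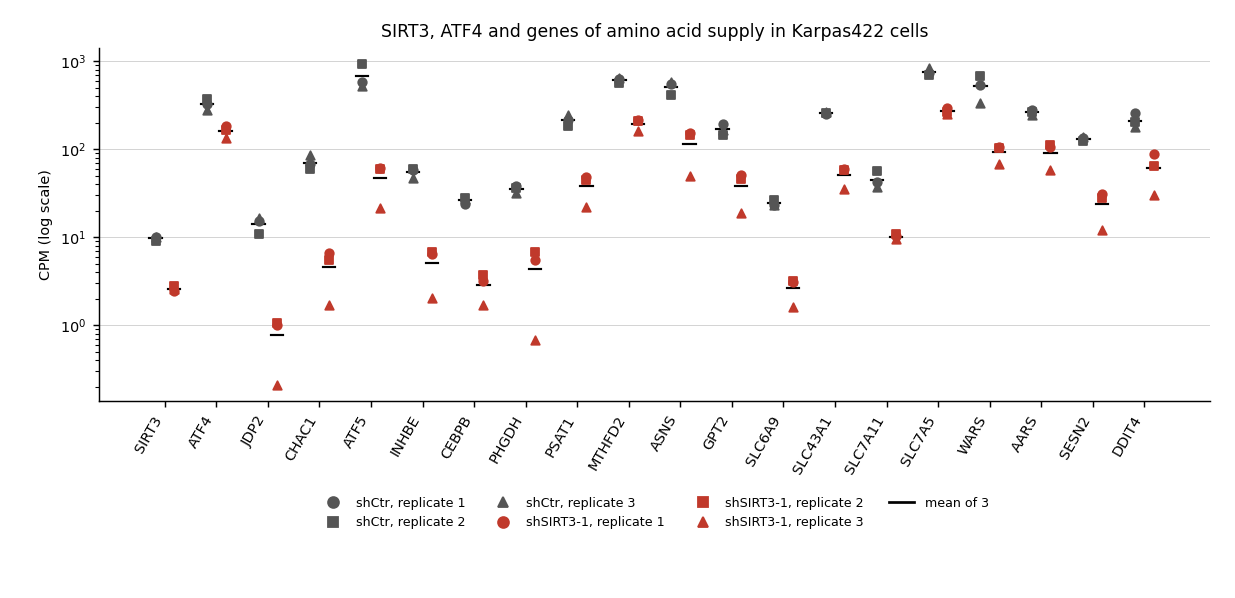
CPM on a log scale of SIRT3, ATF4 and 18 genes of the stress response and of amino acid supply in each of the 6 Karpas422 libraries, with shCtr in grey, shSIRT3-1 in red, marker shapes for replicates and a bar at the mean of 3. In each gene the 3 shSIRT3-1 libraries sit below the 3 shCtr libraries, and replicate 3 of shSIRT3-1 is the lowest library in every gene except SIRT3, as for PHGDH at 0.68 CPM against 5.55 and 6.75 CPM.

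ATF4 and C/EBP proteins bind together at a composite element, written here as TGATGNAA on either strand. The 250 bases before the start of each gene were searched for it in the RefSeq promoter sequences (GRCh38.p14), which 8866 of the tested genes matched. It was present in 30 of 1046 promoters of lower genes (2.87%), in 4 of 371 of higher genes (1.08%), in 89 of 7449 of genes without a call (1.19%) and in 870 of all 27305 promoters of this length (3.19%). Among the lower genes of the ATF4 list it was present in 3 of 20 promoters (15%), and among the lower cytosolic aminoacyl-tRNA synthetases in 2 of 7 (28.6%). It was present in 1 of 5 promoters of the lower serine, glycine and folate enzymes and in 0 of 9 of the lower amino acid transporters. A match of letters is a description of the sequence and not a measured binding site. The sequences of the 3 matching ATF4-list promoters and of AARS are shown because these genes were all lower with shSIRT3-1. Each runs 5′ to 3′ on the strand of the gene and ends at the base before its start, with the match in capitals (TTGCATCA is the element read on the other strand).
CHAC1, chr15:40953221-40953470, plus strand: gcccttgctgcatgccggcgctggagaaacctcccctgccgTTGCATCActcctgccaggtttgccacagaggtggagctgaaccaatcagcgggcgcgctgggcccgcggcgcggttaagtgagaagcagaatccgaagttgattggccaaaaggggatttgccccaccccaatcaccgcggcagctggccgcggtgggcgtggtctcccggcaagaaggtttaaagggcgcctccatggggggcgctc
ATF3, chr1:212565157-212565406, plus strand: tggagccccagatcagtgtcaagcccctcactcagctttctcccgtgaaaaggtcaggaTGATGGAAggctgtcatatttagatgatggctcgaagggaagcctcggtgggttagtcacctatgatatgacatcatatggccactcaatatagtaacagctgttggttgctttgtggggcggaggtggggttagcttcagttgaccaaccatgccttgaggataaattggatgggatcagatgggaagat
HERPUD1, chr16:56931892-56932141, plus strand: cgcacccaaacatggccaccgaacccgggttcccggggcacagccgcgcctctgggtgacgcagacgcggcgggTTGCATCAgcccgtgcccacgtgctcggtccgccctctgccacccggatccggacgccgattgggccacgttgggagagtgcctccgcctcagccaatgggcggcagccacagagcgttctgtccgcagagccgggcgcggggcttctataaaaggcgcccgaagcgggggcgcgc
AARS, chr16:70289507-70289756, minus strand: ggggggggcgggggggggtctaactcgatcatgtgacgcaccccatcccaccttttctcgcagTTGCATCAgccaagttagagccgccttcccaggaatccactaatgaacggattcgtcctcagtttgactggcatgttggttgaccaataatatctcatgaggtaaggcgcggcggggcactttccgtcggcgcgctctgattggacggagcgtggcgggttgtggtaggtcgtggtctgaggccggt
The match began 209 bases before the start of CHAC1, 191 before ATF3, 176 before HERPUD1 and 187 before AARS. In expression, ATF3 measured 6.89, 4.38 and 7.72 CPM with shCtr and 0.825, 1.004 and 0.796 CPM with shSIRT3-1. HERPUD1, a factor of protein degradation at the endoplasmic reticulum (ER), measured 59.7, 68.7 and 56.1 CPM with shCtr and 35.3, 32.9 and 24.4 CPM with shSIRT3-1. The groups did not overlap in either gene.

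All 3 steps of serine synthesis were lower, together with parts of the folate branch. Of 21 measured enzymes of the serine, glycine and folate list, 7 were lower and 0 higher (median −0.36), against 11.6% and 4.58% of all genes. The lower ones were PHGDH, PSAT1, PSPH, SHMT2, MTHFD2, MTHFD1L and AMT. PHGDH, which takes 3-phosphoglycerate into serine synthesis, measured 38.2, 36.6 and 32 CPM with shCtr and 5.55, 6.75 and 0.679 CPM with shSIRT3-1. Replicate 3 stood far below the other knockdown libraries, and the log2 fold change was −3.52 with an SE of 0.71 (adjusted p = 0.00825). The next enzyme, the transaminase PSAT1, measured 214, 182 and 244 CPM with shCtr and 48.6, 44.96 and 22.4 CPM with shSIRT3-1 (log2 fold change −2.53, SE 0.27, adjusted p = 0.000865). The phosphatase of the last step, PSPH, measured 65.3, 53.1 and 75.5 CPM with shCtr and 22.4, 24.01 and 15.6 CPM with shSIRT3-1 (log2 fold change −1.65, adjusted p = 0.000973). MTHFD2, the mitochondrial folate dehydrogenase and among the 5 lower genes of highest CPM, measured 625, 560.3 and 641 CPM with shCtr and 214, 210.1 and 162 CPM with shSIRT3-1 (log2 fold change −1.65, SE 0.13, adjusted p = 0.000423). No knockdown library reached a control library in any of these.

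In the glutamine, asparagine and proline list, 5 of 17 enzymes were lower and 1 was higher (median −0.19), against 11.6% and 4.58% of all genes. ASNS, which makes asparagine from aspartate and glutamine, measured 547, 418 and 587 CPM with shCtr and 153, 144 and 49.9 CPM with shSIRT3-1, 4.47-fold lower (log2 fold change −2.31, SE 0.39, adjusted p = 0.00432). GPT2, the mitochondrial alanine transaminase, measured 194, 147 and 164 CPM with shCtr and 50.7, 46.1 and 18.8 CPM with shSIRT3-1 (log2 fold change −2.24, adjusted p = 0.00278). BCAT1, the cytosolic transaminase of branched-chain amino acids, measured 328, 282 and 255 CPM with shCtr and 132, 127 and 49.2 CPM with shSIRT3-1 (log2 fold change −1.61, adjusted p = 0.00999). GOT1 was also lower. ASL, the argininosuccinate lyase of arginine synthesis, was the higher member (log2 fold change 0.65, adjusted p = 0.00805), and its call was lost without shCtr replicate 2 or shSIRT3-1 replicate 2. GLUD1, which encodes the glutamate dehydrogenase named above, passed the p threshold but not the fold threshold (log2 fold change −0.47, adjusted p = 0.0254).

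Transcripts of amino acid carriers were lower in several transport systems. Of 18 measured plasma membrane amino acid transporters 10 were lower and 1 was higher (median −0.92), against 11.6% and 4.58% of all genes. SLC6A9, the glycine transporter GLYT1, measured 23.1, 26.6 and 23.1 CPM with shCtr and 3.14, 3.18 and 1.602 CPM with shSIRT3-1 (log2 fold change −3.21, SE 0.24, adjusted p = 0.000423). SLC43A1, a carrier of large neutral amino acids, measured 251, 262 and 266 CPM with shCtr and 60.4, 58.4 and 35.4 CPM with shSIRT3-1 (log2 fold change −2.37, SE 0.19, adjusted p = 0.000423). SLC7A11, the cystine importer that feeds glutathione synthesis, measured 42.2, 56.04 and 37.2 CPM with shCtr and 10.3, 10.8 and 9.48 CPM with shSIRT3-1 (log2 fold change −2.12, adjusted p = 0.000423). The 2 chains of the leucine transporter LAT1 fell together, with SLC7A5 at 735, 703 and 839 CPM with shCtr and 292, 266 and 251 CPM with shSIRT3-1 (log2 fold change −1.49, adjusted p = 0.000423) and its partner SLC3A2 at −1.55 (adjusted p = 0.000423). SLC43A2 was the higher member (log2 fold change 0.78, adjusted p = 0.00603). Without shSIRT3-1 replicate 3 the list had 9 lower and 2 higher genes.

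Among the synthetases that charge tRNA, all lower calls were of cytosolic enzymes. Of 20 cytosolic aminoacyl-tRNA synthetases 12 were lower and 0 higher (median −0.87), whereas of 17 mitochondrial synthetases 0 were called in either direction (median 0.09, range of the list −0.43 to 0.50). Over all genes 11.6% were lower and 4.58% higher. WARS, the tryptophan synthetase, measured 545, 674 and 333 CPM with shCtr and 106, 104 and 67.5 CPM with shSIRT3-1 (log2 fold change −2.45, SE 0.27, adjusted p = 0.000937). The alanine synthetase AARS measured 276, 268 and 244 CPM with shCtr and 105, 111 and 58.5 CPM with shSIRT3-1 (log2 fold change −1.58, SE 0.22, adjusted p = 0.00224). For SARS, the serine synthetase, the values were 198, 239 and 173 CPM with shCtr and 84.7, 80.6 and 46.9 CPM with shSIRT3-1 (log2 fold change −1.56, adjusted p = 0.00244). TARS, GARS, CARS, YARS, MARS, NARS, IARS, LARS and EPRS were the other lower members. FARSA, the catalytic chain of the phenylalanine synthetase, had the highest log2 fold change of the cytosolic list, 0.45 (adjusted p = 0.00935), and was not called. The count of 12 was the same with each library left out and was 9 after the correction for GC content and gene length.

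The list of mTORC1, the kinase complex that couples amino acid supply to growth, had calls in both directions and a share of lower genes near that of all genes. Of its 25 measured genes 3 were lower and 2 higher (median 0.03), against 11.6% and 4.58% of all genes. SESN2, a leucine sensor induced by ATF4, measured 135, 123 and 138 CPM with shCtr and 31.3, 28.3 and 12.1 CPM with shSIRT3-1 (log2 fold change −2.57, SE 0.31, adjusted p = 0.00131). DEPTOR, an inhibitory partner of mTOR, measured 52.9, 58.6 and 49.8 CPM with shCtr and 11.04, 12.2 and 6.67 CPM with shSIRT3-1 (log2 fold change −2.46, SE 0.21, adjusted p = 0.000477). The stress-induced inhibitor DDIT4 (REDD1) measured 256, 203 and 177 CPM with shCtr and 87.9, 65.1 and 30.5 CPM with shSIRT3-1 (log2 fold change −1.90, adjusted p = 0.00545). On the other side, SESN3, a sestrin like SESN2 (0.84), and LAMTOR1, a lysosomal anchor of the complex (0.87), were higher, with groups that did not overlap.

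In the list of translation initiation factors and stress kinases, 5 of 28 genes were lower and 1 was higher (median −0.16), against 11.6% and 4.58% of all genes. EIF4EBP1, the repressor of cap-dependent initiation, measured 44.2, 39.6 and 34.3 CPM with shCtr and 15.3, 17.3 and 4.95 CPM with shSIRT3-1 (log2 fold change −1.83, adjusted p = 0.0125). EIF1, which guards start codon choice, measured 350.2, 462 and 356 CPM with shCtr and 186, 184 and 167 CPM with shSIRT3-1 (log2 fold change −1.11, SE 0.13, adjusted p = 0.00106). EIF2S2, the beta subunit of eIF2, was lower as well (−0.95), and EIF5B, the factor of subunit joining, was higher (0.69). MKNK2, a kinase that phosphorylates eIF4E and is among the 5 higher genes of highest CPM, measured 551, 551 and 427 CPM with shCtr and 1089, 1146 and 886 CPM with shSIRT3-1 (log2 fold change 1.03, SE 0.16, adjusted p = 0.00285). Of the cytosolic ribosomal proteins 0 of 74 were lower and 3 higher (median 0.19), a share of higher genes near the 4.58% of all genes. The higher members were RPL12, RPL7 and RPS28. RPL7 and RPS28 were under 1 CPM in every control library, and both lost their call with a pseudocount of 1. They met the filter only through the knockdown libraries, which favours a rise.

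The largest falls were not confined to these lists. HOXB9, a homeobox transcription factor on chromosome 17 (hg19, 46698518 to 46703720, minus strand), had the largest fall of all called genes. It measured 25.7, 25.1 and 26.1 CPM with shCtr and 1.26, 1.33 and 0.297 CPM with shSIRT3-1, 26.6-fold lower (log2 fold change −4.81, SE 0.44, adjusted p = 0.000552). The control libraries lay within 1 CPM of each other, and replicate 3 of shSIRT3-1 was again the lowest. SNTB1, a syntrophin of the membrane cytoskeleton, measured 19.8, 24.6 and 9.65 CPM with shCtr and 1.98, 2.81 and 0.721 CPM with shSIRT3-1 (log2 fold change −3.30, adjusted p = 0.00267). PLXNA1, a semaphorin receptor, measured 84.2, 119 and 27.7 CPM with shCtr and 9.32, 14.47 and 1.602 CPM with shSIRT3-1, with a wide spread in both groups (log2 fold change −3.41, SE 0.80, adjusted p = 0.0146). Its adjusted p was 0.055 without shCtr replicate 2. BEST1, a chloride channel, measured 3.03, 5.801 and 2.62 CPM with shCtr and 0.161, 0.296 and 0.159 CPM with shSIRT3-1 (log2 fold change −3.62, adjusted p = 0.000533), and SPNS3, a predicted lipid transporter, measured 2.04, 4.85 and 3.41 CPM with shCtr and 0.354, 0.332 and 0.1803 CPM with shSIRT3-1 (log2 fold change −3.13, adjusted p = 0.000856). Both were low genes whose groups did not overlap. Like ADM2, they met the 1 CPM filter only through the control libraries.

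GDAP1L1 and LRRC31 were low genes that fell to a few reads. They met the 1 CPM filter only through the control libraries, which favours falls among such genes. GDAP1L1 was counted in 177, 235 and 168 reads with shCtr and in 2, 8 and 0 reads with shSIRT3-1, and LRRC31 in 154, 148 and 268 against 3, 9 and 1 reads. Their log2 fold changes of −3.92 and −3.75 (adjusted p = 0.000423 for each) depended on the pseudocount and were −1.46 and −1.41 with a pseudocount of 1. Among the lower genes of highest CPM, which is not divided by gene length, were FCRLB, an Fc receptor-like protein of B cells, at 736, 707 and 634 CPM with shCtr and 369.9, 438 and 252 CPM with shSIRT3-1 (−1.005, adjusted p = 0.00709), and PTPRC, the CD45 phosphatase of leukocytes, at 530.4, 570.1 and 371 CPM with shCtr and 285, 303 and 211 CPM with shSIRT3-1 (−0.87, adjusted p = 0.0122). FCRLB was no longer called when all 9 Karpas422 libraries were fitted together (adjusted p = 0.153). LRMP, a lymphoid membrane protein, had a log2 fold change of −0.79 (adjusted p = 0.036), and its call was lost without shCtr replicate 1, shCtr replicate 2 or shSIRT3-1 replicate 3.

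**Figure D2:**
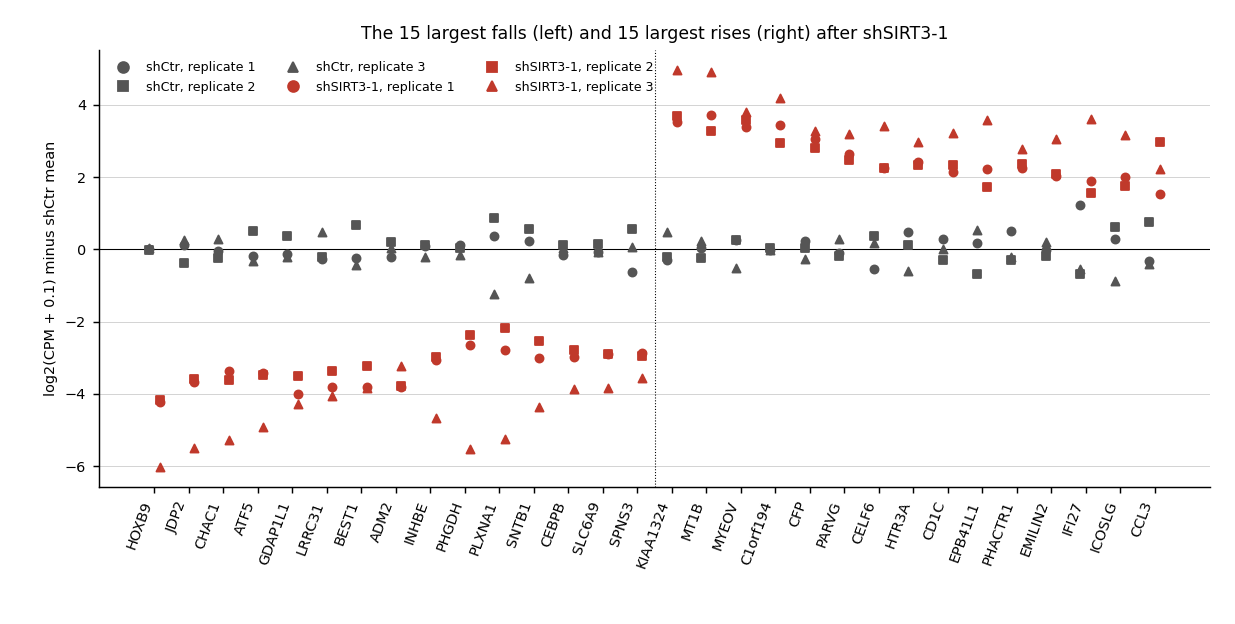
The 15 largest falls and 15 largest rises among called genes whose groups did not overlap, as log2(CPM + 0.1) minus the mean of the shCtr libraries, for the 3 shCtr libraries (grey) and the 3 shSIRT3-1 libraries (red), with marker shapes for replicates. HOXB9 lies lowest on the left and KIAA1324 highest on the right, and shSIRT3-1 replicate 3 is the most extreme library in most of the genes shown.

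Several of the largest rises were in genes close to absence in the control cells. KIAA1324, MYEOV, C1orf194, MT1B, CFP and PHACTR1 were each under 1 CPM in every control library. They met the 1 CPM filter only through the knockdown libraries, which favours rises among such genes. KIAA1324 (EIG121), an estrogen-induced membrane protein on chromosome 1 (hg19, 109656301 to 109749403, plus strand), measured 0.291, 0.314 and 0.566 CPM with shCtr and 5.37, 5.98 and 14.8 CPM with shSIRT3-1, 22.3-fold higher (log2 fold change 4.05, SE 0.39, adjusted p = 0.000622). In reads these were 31, 31 and 61 against 501, 667 and 1393. MYEOV, a gene of the 11q13 region amplified in myeloma, measured 0.216, 0.213 and 0.0836 CPM with shCtr and 2.62, 3.06 and 3.58 CPM with shSIRT3-1 (log2 fold change 3.59, SE 0.27, adjusted p = 0.000423). C1orf194 was counted in 5, 5 and 5 reads against 140, 115 and 245 (log2 fold change 3.52, adjusted p = 0.00058). A pseudocount of 1 gave log2 fold changes of 1.80 for MYEOV and 1.33 for C1orf194. MT1B, a metallothionein, measured 0.835, 0.668 and 0.966 CPM with shCtr and 12, 8.73 and 27.4 CPM with shSIRT3-1 (log2 fold change 3.97, adjusted p = 0.000583), but metallothionein genes are near-identical and reads may be divided between them.

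Other large rises were in genes of varied function. CFP (properdin), the stabiliser of the alternative complement pathway, measured 0.319, 0.263 and 0.195 CPM with shCtr and 2.82, 2.38 and 3.31 CPM with shSIRT3-1 (log2 fold change 3.03, SE 0.22, adjusted p = 0.000423). PARVG, a parvin of leukocyte integrin adhesion, measured 1.36, 1.296 and 1.81 CPM with shCtr and 9.68, 8.65 and 14.2 CPM with shSIRT3-1 (log2 fold change 2.77, SE 0.21, adjusted p = 0.000423). CD1C, which presents lipid antigens to T cells, measured 10.2, 6.74 and 8.32 CPM with shCtr and 36.8, 41.8 and 78.1 CPM with shSIRT3-1 (log2 fold change 2.56, adjusted p = 0.000865). In each of these the lowest knockdown library was more than 3-fold above the highest control library. HTR3A, a serotonin-gated channel, measured 26.6, 20.4 and 12.4 CPM with shCtr and 102, 95.6 and 149.9 CPM with shSIRT3-1 (log2 fold change 2.58, adjusted p = 0.000856). CELF6, an RNA-binding splicing regulator, measured 1.98, 3.86 and 3.38 CPM with shCtr and 14.5, 14.4 and 32.7 CPM with shSIRT3-1 (log2 fold change 2.64, adjusted p = 0.0019). EPB41L1, a membrane cytoskeleton protein, measured 7.99, 4.34 and 10.3 CPM with shCtr and 33.5, 23.9 and 85.9 CPM with shSIRT3-1 (log2 fold change 2.51, adjusted p = 0.00627). PHACTR1 (2.46) and EMILIN2 (2.38) rose as well. Replicate 3 of shSIRT3-1 was the highest library in all of these genes.

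Among the 5 higher genes of highest CPM, FTL, the light chain of the iron store ferritin, measured 422, 425 and 443 CPM with shCtr and 715, 639.7 and 1090 CPM with shSIRT3-1 (log2 fold change 0.88, adjusted p = 0.0107). UHMK1, a kinase with an RNA-recognition motif, rose by 0.72 and the RNA helicase DDX5 by 0.70, the latter losing its call in 4 of the 6 settings that left out a library. GAPDH measured 2285, 1854 and 1960 CPM with shCtr and 3242, 3498 and 2996 CPM with shSIRT3-1, and its log2 fold change of 0.68 (adjusted p = 0.0171) became 0.10 (adjusted p = 0.613) after quantile normalization. GAPDH also lost its call without shCtr replicate 2, shSIRT3-1 replicate 1 or shSIRT3-1 replicate 2.

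**Figure D3:**
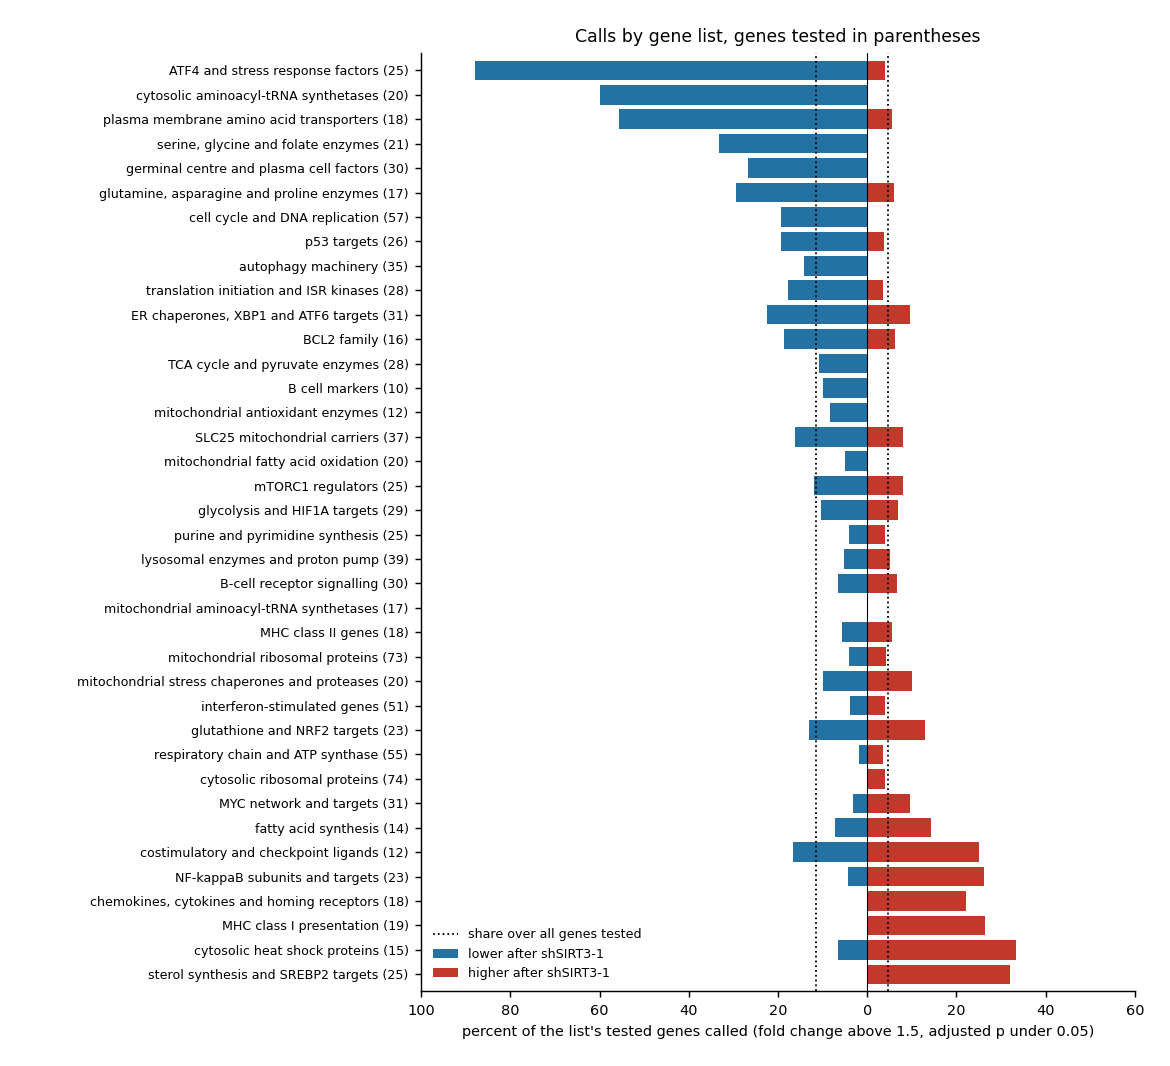
Percent of the tested genes of each list that were called lower (blue, to the left) or higher (red, to the right) with shSIRT3-1, for lists with at least 10 tested genes other than the small nucleolar RNAs, a group noticed only in the values, with the number tested in parentheses and dotted lines at the share over all genes tested (11.6% lower, 4.58% higher). The ATF4 list, the cytosolic synthetases and the amino acid transporters extend farthest to the left, and of the lists shown the heat shock and sterol lists extend farthest to the right.

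Sterol synthesis was the metabolic list with most higher genes. Of 25 genes of the cholesterol pathway and targets of SREBP2, its master regulator, 8 were higher and 0 lower (median 0.50), against 4.58% of all genes. LSS, lanosterol synthase, measured 44.1, 38.5 and 41.03 CPM with shCtr and 116, 119.6 and 105 CPM with shSIRT3-1 (log2 fold change 1.46, SE 0.09, adjusted p = 0.000423). FDFT1, squalene synthase, measured 139, 102 and 144 CPM with shCtr and 284, 272 and 246 CPM with shSIRT3-1 (log2 fold change 1.08, adjusted p = 0.00183). HMGCS1, SQLE, SC5D and NSDHL were also higher. Here replicate 3 of shSIRT3-1 responded least: the medians of the list in the 3 knockdown libraries were 0.55, 0.57 and 0.14, and without replicate 3 the count was 12. Over all alternatives it ran from 7 to 13. FASN, the fatty acid synthase, measured 253, 160.3 and 317 CPM with shCtr and 634, 643 and 534 CPM with shSIRT3-1 (log2 fold change 1.36, SE 0.23, adjusted p = 0.00427), while 1 of 14 genes of fatty acid synthesis was lower (GPAM, −0.65) and 2 were higher. The call of GPAM was lost without shCtr replicate 3.

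Heat shock proteins and ER genes had calls in both directions. Of 15 cytosolic heat shock proteins 5 were higher and 1 lower (median 0.48), against 4.58% and 11.6% of all genes. HSPH1, a nucleotide exchange factor of HSP70, measured 61.05, 55.8 and 97.1 CPM with shCtr and 142, 162 and 156 CPM with shSIRT3-1 (log2 fold change 1.15, adjusted p = 0.00412). DNAJA1, an HSP40 co-chaperone, measured 68.95, 58.6 and 61.4 CPM with shCtr and 116, 116 and 114 CPM with shSIRT3-1 (log2 fold change 0.88, SE 0.09, adjusted p = 0.00067). HSPA1B rose by 1.04 (adjusted p = 0.00999), with reads that its near-identical copy HSPA1A may share, and the co-chaperone BAG3 was lower (−0.77). In the ER list of chaperones and of XBP1 and ATF6 targets, 7 of 31 genes were lower and 3 higher (median −0.01). The stress sensor ERN1 (IRE1) measured 3.55, 8.44 and 3.82 CPM with shCtr and 1.11, 1.47 and 1.4 CPM with shSIRT3-1 (log2 fold change −1.81, adjusted p = 0.00485), and its splicing substrate XBP1 measured 86.3, 72.2 and 98.3 CPM with shCtr and 34.04, 32.7 and 18.3 CPM with shSIRT3-1 (log2 fold change −1.63, SE 0.23, adjusted p = 0.0023). HSPA5 (BiP), the main ER chaperone, measured 84.8, 108 and 95.9 CPM with shCtr and 182, 201 and 222 CPM with shSIRT3-1 (log2 fold change 1.07, SE 0.12, adjusted p = 0.000923). CALR (calreticulin) was higher as well, at 375, 415 and 360.3 CPM against 196, 174 and 219 CPM in the controls (log2 fold change 0.97, adjusted p = 0.00119). ATF6 itself measured 0.05 (adjusted p = 0.666).

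Autophagy genes were called lower in 5 of 35 cases and higher in 0 (median −0.21), against the 11.6% of all genes. ULK1, the kinase that starts autophagy, measured 9.87, 12.9 and 11.97 CPM with shCtr and 3.71, 4.45 and 4.01 CPM with shSIRT3-1 (log2 fold change −1.49, SE 0.14, adjusted p = 0.00058). WIPI1, which recruits the lipidation machinery, and the receptor CALCOCO2 (NDP52) were lower as well, with log2 fold changes of −0.94 and −0.80. In the lysosomal list 2 of 39 genes were lower and 2 higher, against 11.6% and 4.58% of all genes. CTSA, a protective protein of lysosomal glycosidases, rose by 1.11 (adjusted p = 0.00742) and GLA, the galactosidase, by 0.91 (adjusted p = 0.0009).

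Lists of nuclear genes of the mitochondrion differed in their share of calls. In the respiratory chain and ATP synthase 1 of 55 genes was lower and 2 were higher (median −0.05), in the TCA cycle 3 of 28 were lower and 0 higher (median −0.04), and in the mitochondrial ribosome 3 of 73 were lower and 3 higher (median 0.07), shares under the 16.2% of all genes called in either direction. The lower TCA genes were FH (−0.70), SDHA (−0.67) and DLD (−0.63), and all of these calls were lost without shSIRT3-1 replicate 3, where their adjusted p stayed at 0.01 to 0.012 but the fold fell under the threshold. COX7C, a subunit of cytochrome c oxidase, measured 34.96, 37.3 and 26.5 CPM with shCtr and 67.2, 67.3 and 64.4 CPM with shSIRT3-1 (log2 fold change 1.02, SE 0.13, adjusted p = 0.00149). NDUFB10, the other higher respiratory gene, rose by 0.68 (adjusted p = 0.0388) but kept its call in only 1 of the 6 settings that left out a library. In the list of mitochondrial chaperones and proteases 2 of 20 were lower and 2 higher, and in the SLC25 family of mitochondrial carriers 6 of 37 were lower and 3 higher. Both shares lie above 16.2%. The matrix protease LONP1 measured 137, 152 and 115 CPM with shCtr and 78.7, 78.3 and 74.2 CPM with shSIRT3-1 (log2 fold change −0.80, adjusted p = 0.00217), the import receptor TOMM20 was lower (−0.73), and the import factors TIMM8A (0.97) and GRPEL1 (0.65) were higher, the last not without shCtr replicate 2. The called SLC25 genes include the ADP/ATP carrier SLC25A4 (−0.96, adjusted p = 0.000488) on the lower side and the glutamate carrier SLC25A22 (1.01, adjusted p = 0.000787) on the higher side. Without shSIRT3-1 replicate 3 the SLC25 list had 3 lower and 2 higher genes. The deposited files list no mitochondrially encoded transcripts.

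Antioxidant and glucose genes had calls in both directions, as did all genes tested (11.6% lower, 4.58% higher). The shares of lower genes in these lists lay near that of all genes. In the list of glutathione and NRF2 targets 3 of 23 genes were lower and 3 higher, among the latter the peroxidase PRDX1 at 106, 63.5 and 128 CPM with shCtr and 187, 172 and 185 CPM with shSIRT3-1 (log2 fold change 0.93, adjusted p = 0.0164), whose adjusted p was 0.052 without shSIRT3-1 replicate 1. The superoxide dismutase SOD1 was the only called gene of the 12 listed as mitochondrial antioxidant enzymes (−0.63). Its fold fell under the threshold without shSIRT3-1 replicate 3, with quantile normalization or median-ratio scaling, and in edgeR and DESeq2. SOD2, the matrix dismutase that SIRT3 deacetylates, measured 0.17 (adjusted p = 0.485). For glycolysis and HIF1A targets the counts were 3 of 29 lower and 2 higher (median 0.00). PFKP, a phosphofructokinase, measured 82.8, 54.97 and 102 CPM with shCtr and 45.97, 44.7 and 37.2 CPM with shSIRT3-1 (log2 fold change −0.86, adjusted p = 0.0156). VEGFA, the angiogenic factor, measured 74.5, 67.6 and 48.8 CPM with shCtr and 19.8, 21.2 and 3.27 CPM with shSIRT3-1, with a log2 fold change of −2.48 and a wide SE of 0.63 (adjusted p = 0.0192), and it lost its call without shCtr replicate 1 or 2. HIF1A itself measured 0.30 (adjusted p = 0.14).

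Of 30 factors of germinal centre and plasma cells 8 were lower and 0 higher (median −0.37), against 11.6% and 4.58% of all genes. TNFRSF17 (BCMA), a survival receptor of plasma cells, measured 3.96, 3.51 and 3.73 CPM with shCtr and 0.922, 0.941 and 0.371 CPM with shSIRT3-1 (log2 fold change −2.27, SE 0.30, adjusted p = 0.0019). It met the 1 CPM filter only through the control libraries, which favours a fall. JCHAIN, which joins secreted IgM and IgA, measured 94.2, 76.9 and 108 CPM with shCtr and 35.8, 42.04 and 13.4 CPM with shSIRT3-1 (log2 fold change −1.76, adjusted p = 0.0107). XBP1, MEF2B, MEF2C, BACH2 and EBF1 were also lower. EBF1, a factor of B-cell identity, measured 102, 108 and 104 CPM with shCtr and 60.8, 64.3 and 58.2 CPM with shSIRT3-1 (log2 fold change −0.78, SE 0.08, adjusted p = 0.000751) and was the only called gene of 10 B-cell markers. The remaining markers, among them MS4A1 (CD20), CD79A and PAX5, were all detected. In B-cell receptor signalling 2 of 30 genes were lower and 2 higher. CD72, a co-receptor, measured 1.84, 1.58 and 1.21 CPM with shCtr and 4.51, 4.57 and 5.21 CPM with shSIRT3-1 (log2 fold change 1.58, adjusted p = 0.00103), and PRKCB, the kinase between the receptor and NF-κB, measured 6.68, 6.67 and 7.86 CPM with shCtr and 16.6, 15.5 and 24.6 CPM with shSIRT3-1 (log2 fold change 1.38, SE 0.18, adjusted p = 0.00167).

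Some lists of cytokines and antigen presentation had more higher than lower calls. In the list of NF-κB subunits and targets 6 of 23 genes were higher and 1 lower (median 0.12), and in the list of chemokines, cytokines and homing receptors 4 of 18 were higher and 0 lower, against 4.58% of all genes higher. CCL3 and CCL4 are counted in both lists. TNF measured 66.2, 69.3 and 16.2 CPM with shCtr and 185, 172 and 166 CPM with shSIRT3-1, with 1 control library far below the others (log2 fold change 2.05, SE 0.49, adjusted p = 0.0153). CCL3, a chemokine of macrophages and activated B cells, measured 0.778, 1.76 and 0.734 CPM with shCtr and 3.09, 8.57 and 5.05 CPM with shSIRT3-1 (log2 fold change 2.23, adjusted p = 0.0061), with sequence similarity to its copies as a limit. ICOSLG, the ligand of the T-cell costimulator ICOS, measured 1.997, 2.56 and 0.836 CPM with shCtr and 6.86, 5.72 and 15.4 CPM with shSIRT3-1 (log2 fold change 2.30, adjusted p = 0.00773). TGFB1 was less variable, at 54.6, 57.2 and 56.6 CPM with shCtr and 95.5, 101 and 96.4 CPM with shSIRT3-1 (log2 fold change 0.80, SE 0.07, adjusted p = 0.00058). In MHC class I presentation 5 of 19 genes were higher and 0 lower (median 0.31), against 4.58% higher over all genes. NLRC5, the transactivator of class I genes, measured 49.98, 35.05 and 23.9 CPM with shCtr and 62.04, 61.8 and 95.7 CPM with shSIRT3-1 (log2 fold change 1.04, adjusted p = 0.0205) and lost its call without shCtr replicate 2 or shSIRT3-1 replicate 3, and the class I count was 1 without shSIRT3-1 replicate 3. In MHC class II 1 of 18 genes was lower and 1 higher (median 0.21), the latter CIITA, the class II transactivator (0.70, adjusted p = 0.0254), which lost its call in 4 of the 6 settings that left out a library.

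The count of interferon-stimulated genes turned on a single control library. Of 51 measured genes of this list 2 were lower and 2 higher (median 0.47), against 11.6% and 4.58% of all genes. The summed CPM of the list, however, was 4616, 2120 and 1553 with shCtr and 3190, 3105 and 3873 with shSIRT3-1. Replicate 1 of shCtr lay above all the knockdown libraries, and replicates 2 and 3 lay below them. Without shCtr replicate 1 the list had 1 lower and 34 higher genes (median 1.09), against 1155 lower and 498 higher of 10966 genes over all. ISG15, a ubiquitin-like protein induced by interferon, measured 331, 81.3 and 52.5 CPM with shCtr and 256, 228 and 361 CPM with shSIRT3-1. Its log2 fold change was 1.30 (adjusted p = 0.118), and 2.08 without shCtr replicate 1 (adjusted p = 0.0037). IFIT1 (1.65 and 2.71), IFI6 (1.56 and 2.38) and MX1 (0.83 and 1.39) behaved likewise, with adjusted p of 0.134, 0.0755 and 0.176 in the full comparison. These genes were chosen after their values were seen. The library left out was likewise chosen for its high values in this list. Its removal favours higher calls and larger rises, so these values add no support of their own. IFI27 (2.34, adjusted p = 0.024) and LGALS9 (2.22, adjusted p = 0.0144) were the higher genes of the full comparison and APOL6 (−1.20) and ISG20 (−0.89) the lower ones. LGALS9 was under 1 CPM in every control library. It met the 1 CPM filter only through the knockdown libraries, which favours a rise. APOL6 lost its call when any of 4 libraries was left out, and IFI27 lost its call without shCtr replicate 2, shCtr replicate 3 or shSIRT3-1 replicate 3.

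**Figure D4:**
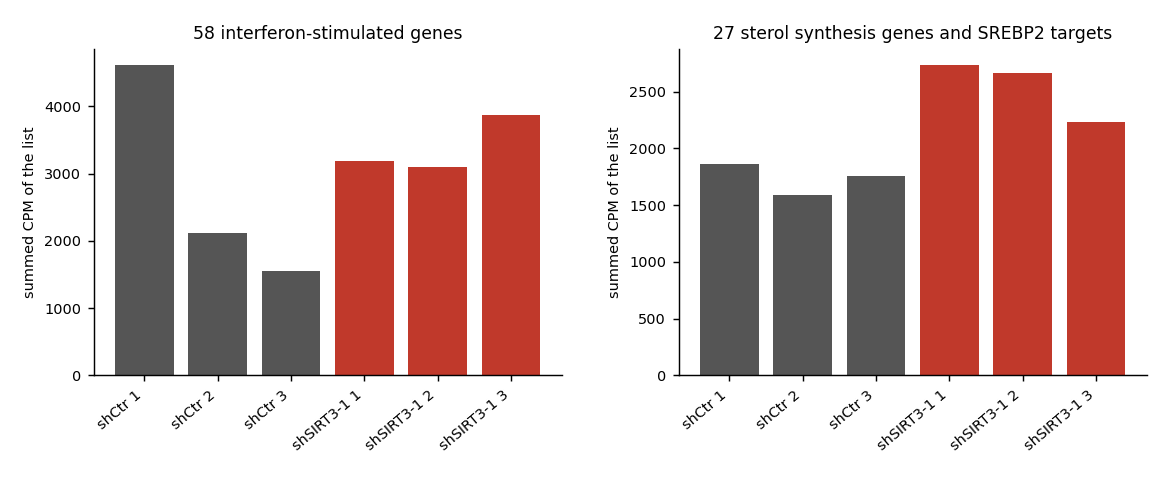
Summed CPM in each Karpas422 library of the 58 listed interferon-stimulated genes (left) and the 27 listed sterol synthesis genes and SREBP2 targets (right), with shCtr in grey and shSIRT3-1 in red, 1 bar per library. The interferon sum of shCtr replicate 1, 4616, is the highest of the 6, whereas the sterol sums of 1592 to 1861 with shCtr all lie below the 2230 to 2734 with shSIRT3-1.

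Lists of cell death and division had more lower than higher calls, as did all genes tested (11.6% lower, 4.58% higher). In the BCL2 family 3 of 16 were lower and 1 higher. PMAIP1 (NOXA), a death-inducing BH3-only protein, measured 76.5, 55.7 and 88.9 CPM with shCtr and 15.8, 17.6 and 26.9 CPM with shSIRT3-1 (log2 fold change −1.88, SE 0.23, adjusted p = 0.0013). BBC3 (PUMA), of the same class, measured 3.38, 3.78 and 2.72 CPM with shCtr and 1.29, 1.43 and 0.5304 CPM with shSIRT3-1 (log2 fold change −1.61, adjusted p = 0.00893). Of 57 cell cycle and DNA replication genes 11 were lower, 0 higher and 46 not called (median −0.22). Those with the largest falls were inhibitors of cyclin-dependent kinases: CDKN1A (p21) measured 4.43, 6.196 and 4.78 CPM with shCtr and 0.707, 1.19 and 1.496 CPM with shSIRT3-1 (log2 fold change −2.13, SE 0.26, adjusted p = 0.00141) and CDKN2D had a log2 fold change of −1.34. CDKN1B (p27) had a log2 fold change of −1.24 (adjusted p = 0.0185) and lost its call without shCtr replicate 1 or 2. TK1, the salvage thymidine kinase, measured 50.5, 38.02 and 55.7 CPM with shCtr and 22.6, 23.97 and 17.9 CPM with shSIRT3-1 (log2 fold change −1.15, adjusted p = 0.00231), and the licensing factor CDT1 was lower as well (−1.15). Of 26 p53 targets 5 were lower and 1 higher, the latter BTG2, an antiproliferative factor, at 226, 232 and 159 CPM with shCtr and 522, 455 and 786 CPM with shSIRT3-1 (log2 fold change 1.497, SE 0.22, adjusted p = 0.00274). The MYC list had 1 lower and 3 higher of 31 genes, and MYC itself measured −0.12 (adjusted p = 0.381).

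Small nucleolar RNAs formed a group that was noticed after the values were seen. Of 457 genes with snoRNA or scaRNA names 29 were tested, of which 23 were higher and 0 lower (median 0.91). Over all genes 4.58% were higher and 11.6% lower. The filter also admits genes that reach 1 CPM only in the knockdown libraries, which favours higher calls among genes near that level. Reads of these short RNAs cannot be told apart from those of the introns and exons of their host genes in libraries of this kind, and the count depended on the processing. It was 12 of 18 without shSIRT3-1 replicate 3, 5 of 23 after the correction for GC content and gene length, 76 of 306 with no filter on low values, and 0 of 1 when at least 5 CPM was asked for in 3 libraries. Markers of other cell types were close to absent or already present in the controls. Of 10 T-cell markers 3 were tested, with a summed CPM of 45.3 to 50.2 with shCtr and 27.8 to 40.9 with shSIRT3-1, most of it CD3G (−0.68, adjusted p = 0.0227). Of the myeloid list 2 were tested (summed CPM 3.79 to 4.87 and 4.93 to 6.95), and of the epithelial and fibroblast list only DCN (decorin), at 401, 423 and 416 CPM with shCtr and 245, 292 and 144 CPM with shSIRT3-1 (log2 fold change −0.92, adjusted p = 0.018). The CD3G call was lost in 5 of the 6 settings that left out a library and the DCN call without shCtr replicate 2, and their part in the other results was not tested.

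The second shRNA, shSIRT3-2, was compared with shSIRT3-1 directly, because the comparisons of the 2 shRNAs with shCtr share the control libraries. It left more SIRT3, at 6.24, 5.32 and 4.41 CPM against 2.44, 2.79 and 2.57 CPM with shSIRT3-1 (log2 difference shSIRT3-1 minus shSIRT3-2 of −0.99, 95% interval −1.31 to −0.68, adjusted p = 0.00249). Between the shRNAs 1297 of 11235 genes differed (11.5%, fold change above 1.5 and adjusted p under 0.05), 772 lower and 525 higher with shSIRT3-1. ATF4 was lower with shSIRT3-2, at 121.5, 119.7 and 104.5 CPM, and the difference of 0.47 had an adjusted p of 0.04 but did not reach the fold threshold. Against the shared controls, the ATF4 list gave 22 lower genes and 1 higher gene of 25 with shSIRT3-2 also (median −2.40). Over all genes, 974 of 10977 were lower and 528 higher with shSIRT3-2. INHBE fell less with shSIRT3-1 (difference 2.06, adjusted p = 0.0122), as did ADM2 (1.02, adjusted p = 0.0163) and HOXB9 (1.60, adjusted p = 0.0428). SLC7A11 was lower with shSIRT3-1, at 10.3, 10.8 and 9.48 CPM against 21.3, 26.4 and 48.2 CPM with shSIRT3-2 (difference −1.55, adjusted p = 0.00473). For JDP2, ATF5, LRRC31, GDAP1L1 and PHGDH the differences had adjusted p above 0.6, with intervals as wide as −1.33 to 2.48 for PHGDH.

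Most of the 10 largest rises were larger with shSIRT3-1 than with shSIRT3-2. MYEOV measured 0.063, 0.019 and 0 CPM with shSIRT3-2 against 2.62, 3.06 and 3.58 CPM with shSIRT3-1 (difference 4.66, SE 0.30, adjusted p = 0.00014). MT1B differed by 3.43 (adjusted p = 0.00085), HTR3A by 2.92 (adjusted p = 0.00085), CD1C by 2.75 (adjusted p = 0.00091), EPB41L1 by 2.63 (adjusted p = 0.00445), KIAA1324 by 2.36 (adjusted p = 0.00397), PARVG by 2.17 (adjusted p = 0.00076) and CFP by 1.36 (adjusted p = 0.00342), all higher with shSIRT3-1. These genes had been picked for their rise in the same shSIRT3-1 libraries, which favours a difference in this direction here and in the comparisons with the other lines. CELF6 measured 24.1, 18.8 and 31.9 CPM with shSIRT3-2, and its difference of −0.36 had an interval of −1.13 to 0.42. TNF differed by 3.21 (adjusted p = 0.0115) and CCL3 by 3.22 (adjusted p = 0.00246). Of 18 MHC class II genes 11 were higher with shSIRT3-1 than with shSIRT3-2 (median 0.71), against 525 of 11235 genes over all. Against the shared controls, 1 of the 18 was lower and 1 higher with shSIRT3-1 (median 0.21), against 11.6% and 4.58% of all genes. With shSIRT3-2, 3 were lower and 0 higher (median −0.49), so the difference includes a fall with shSIRT3-2. Over all genes, 974 of 10977 were lower and 528 higher with that shRNA. CD74, the invariant chain, differed by 1.02 (adjusted p = 0.0311) and HLA-DRA by 0.82 (adjusted p = 0.0166). SIRT2 was lower with shSIRT3-1 than with shSIRT3-2 (difference −0.83, 95% interval −1.19 to −0.46, adjusted p = 0.00875). TNF, CCL3, CD74, HLA-DRA, SIRT2 and SLC7A11 were chosen for this comparison after their values were seen.

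HBL1, a line of the activated B-cell type, received the same shSIRT3-1 and its own controls. Of 10355 genes tested in both lines, 601 were lower in both, 51.5% of the 1168 lower genes of Karpas422 and 42.8% of the 1403 of HBL1, and 133 were higher in both, 30.3% of the 439 and 18.7% of the 710. In its own fit HBL1 had 22.2% of genes called. The responses of the lines differed for 1043 of 12523 genes (8.33%, limma interaction, adjusted p under 0.05). In the ATF4 list 23 of 25 genes were lower in HBL1 (median −2.32), against 1403 of the 10355 genes tested in both lines. The response differed for 6 of 27 genes of the list (JDP2 and STC2 among them). SIRT3 fell further in HBL1, from 13.5, 14.2 and 16.4 to 2.13, 2.39 and 2.00 CPM (Karpas422 response minus HBL1 response 0.83, 95% interval 0.41 to 1.24, adjusted p = 0.0246). JDP2 fell less there, from 26.1, 21.9 and 19.1 to 6.91, 8.74 and 5.03 CPM (difference −2.54, interval −3.87 to −1.22, adjusted p = 0.0281). For ATF4 the difference was 0.28 (interval −0.19 to 0.74, adjusted p = 0.42), and for CHAC1 it was 0.33 (interval −0.85 to 1.52, adjusted p = 0.717).

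In OCI-LY1, a line of the germinal centre B-cell type, 0.703% of genes were called with shSIRT3-1 in its own fit, 39 lower and 28 higher among the genes tested in both lines. Of those 39 lower genes 30 (76.9%) were also lower in Karpas422, 2.67% of its 1125, and 10 higher genes were shared (35.7% of the 28 and 2.28% of the 439). A control library of OCI-LY1 stood apart: CHAC1 measured 1.99, 67.2 and 2.23 CPM with shCtr and 0.73, 1.81 and 0.62 CPM with shSIRT3-1, and ATF4 measured 152, 326 and 129 CPM against 143, 150 and 123 CPM. In the ATF4 list 0 of 23 genes were called lower in OCI-LY1 (median −0.70). The responses of Karpas422 and OCI-LY1 differed for 298 of 11995 genes (2.48%), and for 881 without that library, replicate 2. For ATF4 the difference was −0.60 (interval −1.43 to 0.23, adjusted p = 0.389) and −1.01 without replicate 2 (adjusted p = 0.0209), and for CHAC1 it was −1.37 (adjusted p = 0.614) and −3.02 (adjusted p = 0.0242). Replicate 2 was singled out by its high values of these same genes. Leaving it out therefore favours a larger difference for ATF4 and CHAC1, and those values add no support of their own. JDP2 differed with and without replicate 2, by −3.91 (adjusted p = 0.00945) and −4.19 (adjusted p = 0.00387).

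**Figure D5:**
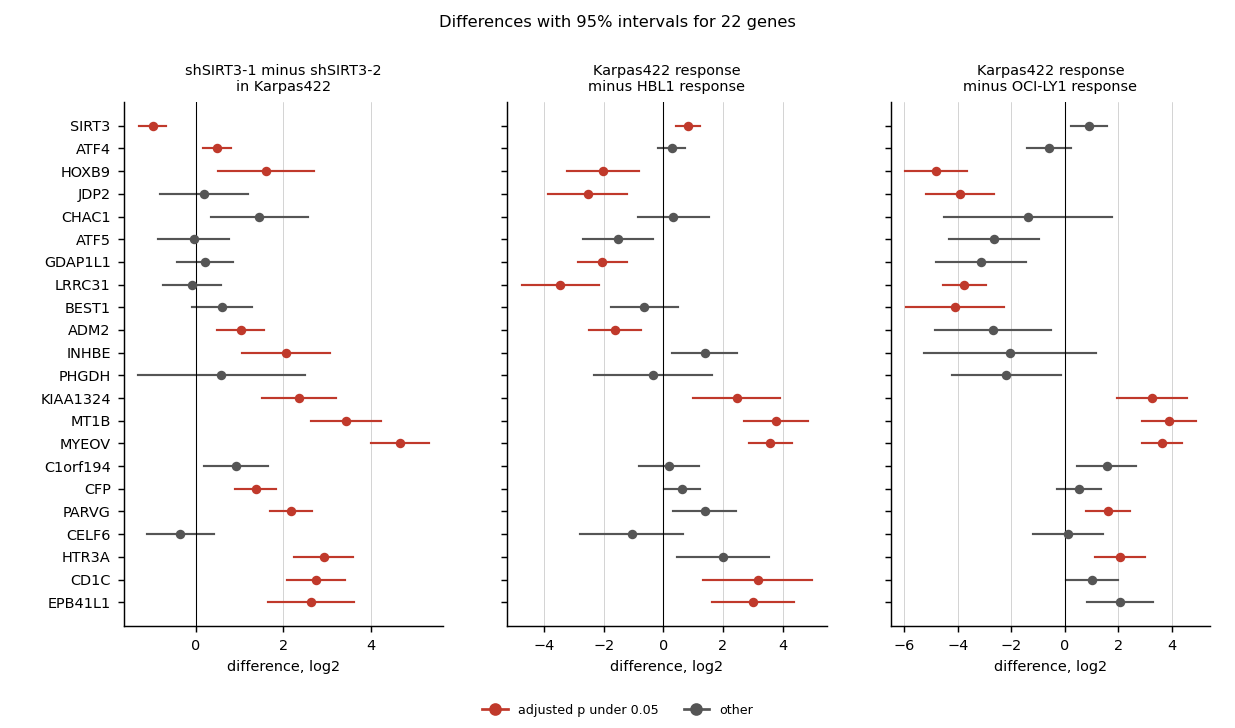
Log2 differences with 95% intervals for SIRT3, ATF4, the 10 largest falls and the 10 largest rises, between shSIRT3-1 and shSIRT3-2 in Karpas422 (left), between the Karpas422 and HBL1 responses to shSIRT3-1 (middle) and between the Karpas422 and OCI-LY1 responses (right), in red where the adjusted p was under 0.05. MYEOV and MT1B lie above 3 in every panel, while CHAC1 and PHGDH are in grey in every panel.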

How the data were processed

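RNA sequencing values of 27 libraries were used, 6 of them for the comparison described. Per the labels and the study's methods, random-primed TruSeq libraries of total RNA were read as paired ends, the authors aligned them to hg19 with STAR and counted RefSeq genes with Rsubread (versions and strand setting not given in the sources used here), and the deposited values are named FPKM. They are CPM: in each library 100% of the values were whole multiples of 1 step (within 0.01 reads), so that the deposited CPM values are not divided by gene length. The step also gave back whole reads, but the total to which the authors scaled is not given.

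Genes with at least 1 CPM in at least 3 libraries were tested as log2(CPM + 0.1) with limma 3.58.1 in R 4.3.3 (variance trend, Benjamini-Hochberg adjustment), and called at a fold change above 1.5 and an adjusted p under 0.05. Differences between lines were interaction contrasts over 12 libraries, and shSIRT3-1 was set against shSIRT3-2 in a fit of 9 libraries. The method was planned for FPKM and kept. edgeR 4.0.16 and DESeq2 1.42.0 on the recovered reads, other pseudocounts, filters and scalings, lowess adjustment for gene length and GC content (span 0.3), other fits and leaving out each library served as alternatives. On simulated data limma recovered 176 of 195 genes changed 2-fold (90.3%) with 12 false calls among 11030 genes tested. The simulated counts had the same dispersion for every gene, and no library was made to stand apart. Genes of few reads were not among those changed, so these rates need not hold for the real libraries.

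Named genes were SIRT3, ATF4, the 15 largest falls and rises without overlap, the 5 called genes of highest CPM in each direction, and up to 3 called members of each of 44 gene lists in each direction. The gene groups and lists were chosen with earlier results of these data known. Results for a few list members are not reported here. Gene coordinates are from GENCODE lifted to hg19, which matched 24020 of 27115 genes by symbol, and promoters are from RefSeq on GRCh38.p14. Tables and plots were made with Python 3.11.15, pandas 2.3.3 and matplotlib 3.10.9.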

Additional observations from a re-analysis of the deposited data

Results flagged for a closer look

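The response to shSIRT3-1 in Karpas422 differed from that in HBL1 (limma interaction, 12 libraries, Benjamini-Hochberg adjusted p under 0.05) for 11 of the 22 genes compared, and from that in OCI-LY1 for 9. Of these 22 genes 20 were picked for the size of their change in the same Karpas422 libraries, which favours a difference. Against HBL1 the differences, Karpas422 minus HBL1 on the log2(CPM + 0.1) scale, were 0.83 for SIRT3, −2.02 for HOXB9, −2.54 for JDP2, −2.05 for GDAP1L1, −3.47 for LRRC31, −1.62 for ADM2, 2.46 for KIAA1324, 3.79 for MT1B, 3.59 for MYEOV, 3.17 for CD1C and 3.0 for EPB41L1. MT1B was listed at 0 CPM in all 3 HBL1 control libraries and MYEOV at 0.0203, 0 and 0 CPM, so that there the contrast is with a line that hardly expressed them. EPB41L1 was also low in HBL1, at 0.220 to 0.296 CPM in the controls and 0.0720 to 0.224 CPM with shSIRT3-1. HOXB9 measured 0.518, 0.613 and 0.722 CPM in HBL1 controls and 0.00933, 0 and 0 CPM with shSIRT3-1, and its difference turned to 0.65 with a pseudocount of 0.01. GDAP1L1 and LRRC31 also started low in HBL1, at 0.223 to 0.460 and 0.0914 to 0.409 CPM in the controls, and GDAP1L1 measured 0.00933, 0 and 0.0180 CPM there with shSIRT3-1, so that the pseudocount of 0.1 limits the fall that can be seen. With a pseudocount of 0.01 the GDAP1L1 difference was not past the threshold (−1.84, adjusted p = 0.237). Many of the differences for SIRT3, HOXB9, JDP2, ADM2, KIAA1324 and CD1C were not past the threshold when a library was left out, while those for LRRC31 and MYEOV were past it under every alternative run, with the low starting level as a limit in each.

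Against OCI-LY1 the differences were −4.81 for HOXB9, −3.91 for JDP2, −3.76 for LRRC31, −4.11 for BEST1, 3.25 for KIAA1324, 3.88 for MT1B, 3.63 for MYEOV, 1.61 for PARVG and 2.06 for HTR3A. HOXB9, MT1B and MYEOV were each at or under 0.00995 CPM in the 3 OCI-LY1 control libraries, LRRC31 at or under 0.0260 CPM and HTR3A at or under 0.0346 CPM, and the HTR3A difference was not past the threshold with a pseudocount of 0.01 (0.78, adjusted p = 0.67). BEST1, at 0.0621, 0.909 and 0.0398 CPM, and PARVG, at 0.331, 0.589 and 0.567 CPM, were also low in the OCI-LY1 controls. KIAA1324 was already expressed there, at 13.8, 17.0 and 9.38 CPM in the controls and at 15.2, 42.5 and 18.2 CPM with shSIRT3-1. All 9 differences were past the threshold without OCI-LY1 shCtr replicate 2, the library that stood apart.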

How the results depend on the processing

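SIRT3 was called lower under every alternative run, with log2 fold changes of −1.58 to −1.92. The number of called genes stayed between 1298 and 2065 over all alternatives, and between 1429 (without shCtr replicate 2) and 1864 when each library was left out. The balance of directions moved with the scaling: 793 genes were higher after quantile normalization (891 lower), 726 with median-ratio scaling (1005 lower), 707 by edgeR's quasi-likelihood test (1044 lower) and 759 by DESeq2 (1063 lower), against 509 (1293 lower) on the deposited scale. Quantile normalization moved the median of all genes from −0.079 to 0.021. Of the 160 genes named by rule besides SIRT3, 103 kept their call in every alternative, 47 lost it when 1 library was left out, 10 lost it only elsewhere and 0 reversed. Leaving out 1 library gave 248 (without HBL1 shCtr replicate 2) to 1467 genes for the difference from HBL1 (1043 with all libraries), 53 (without Karpas422 shCtr replicate 2) to 881 (without OCI-LY1 shCtr replicate 2) for the difference from OCI-LY1 (298), and 852 (without shSIRT3-1 replicate 1) to 1303 for shSIRT3-1 against shSIRT3-2 (1297).

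Deviations of same-numbered libraries had correlations of 0.292, 0.0851 and 0.26 across genes, and those of other pairs ran from −0.291 to 0.0937. Replicates 1 and 3 of shSIRT3-1 correlated best with the control of their own number. For shSIRT3-1 replicate 2 the values with shCtr replicate 1 (0.0937) and shCtr replicate 2 (0.0851) were close. Whether the numbers mark shared batches cannot be told from the labels, and the main fit did not take them as pairs. With the replicate number as a block 1894 genes were called (1358 lower, 536 higher), 1780 of them shared with the fit without it. The replicate block left SIRT3 at −1.87 (limma, adjusted p = 0.00137) and gave 1351, 415 and 1497 genes for the differences from HBL1, from OCI-LY1 and between the shRNAs.

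These differences changed sign. Against HBL1, a pseudocount of 0.01 gave 0.65 for HOXB9, 0.078 for BEST1 and −1.43 for C1orf194, a pseudocount of 1 gave −0.076 for CHAC1 and 0.063 for PHGDH, and quantile normalization gave −0.015 for C1orf194 and −0.20 for CFP. Leaving out 1 library gave −0.027 to 0.92 for CHAC1, −0.93 to 0.64 for PHGDH and −0.15 (without shSIRT3-1 replicate 3) to 0.51 for C1orf194, with −0.054 without HBL1 shSIRT3-1 replicate 2. Between the shRNAs it gave −0.14 to 0.82 for JDP2 (−0.10 without shSIRT3-1 replicate 1), −0.31 to 0.44 for ATF5 (0.013 without shSIRT3-2 replicate 1), −0.017 to 0.37 for GDAP1L1, −0.29 to 0.066 for LRRC31 and −0.30 to 1.58 for PHGDH. Quantile normalization gave 0.026 for ATF5 (0.026 with median-ratio scaling), −0.16 for GDAP1L1 and −0.21 for BEST1. Against OCI-LY1, CELF6 was at −0.12 with a pseudocount of 0.01 and ran from −0.27 to 0.63 without 1 library. Apart from HOXB9 against HBL1, none of these differences had passed the threshold, and the cause was not tested. With 3 libraries a group, genes of a few reads are limited by depth.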
